A study of Mus musculus with 4 samples.

Results

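Homologous recombination in meiosis rests on proteins that coat the ends of broken DNA and carry them into an intact chromosome. The transcripts of 9 genes for this strand exchange step were measured in cultured mouse spermatogonia: Dmc1, Psmc3ip, Mnd1, Meiob, Spata22, Hsf2bp, Brca2, Mcmdc2 and M1ap. They were taken from the deposited table of gene counts by symbol, 9 of 55421 genes, as a set of the meiotic recombinase, its loaders and its partners. Of these genes 8 act mainly in meiosis, whereas Brca2 also serves repair in dividing somatic cells. Other genes of meiotic and general recombination were described beside them.

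RNA was sequenced from spermatogonial stem cell (SSC) cultures of CD1 mice in 2 groups of 2 libraries. The cultures derived from testes of pups 6 days old and grew on purchased mouse embryonic fibroblast feeder cells whose division had been arrested, so each library could hold RNA of both. The Veh group was kept in complete SSC medium, whereas the NRRA group received retinoic acid in a nutrient restriction medium that was 90% a balanced salt solution without amino acids. The study describes this treatment as lasting 2 days. The labels name 10 ng/ml each of GDNF and bFGF and an N2 supplement for the cultures in general. In the study's table of media GDNF is higher, and the rest of the restriction medium is complete SSC medium. These supplements were therefore diluted in NRRA, which cannot be told apart from the other parts of the treatment. No transgene or gene deletion is named for any library. Replicates of all its sequencing experiments are called biologically independent by the study, while the labels name no separate culture or animal for each library. The p-values measure the spread between these libraries only. That spread was small, with a common biological coefficient of variation, the spread beyond counting error, of 2.6%. The Pearson r of log2 CPM was 0.993 within Veh and 0.994 within NRRA.

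When a programmed double-strand break has been cut back to single strands, RPA covers the strands first. BRCA2 helps the meiosis-specific recombinase DMC1 to replace RPA, and HSF2BP with BRME1 brings BRCA2 to the meiotic break sites. The HOP2-MND1 dimer, encoded by Psmc3ip and Mnd1, then stimulates the search for and invasion of the homologous chromosome, and MEIOB with SPATA22 forms a further single-strand DNA binding complex. In the testis these steps belong to early meiotic prophase, which follows the entry into meiosis that retinoic acid and STRA8 bring about.

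The libraries held between 28022265 and 31604769 counts. A count of 3, taken as the detection floor, equalled 0.0921 to 0.111 counts per 1000000 counts (CPM), and limits of this kind cover counting error only. Stra8, the retinoic acid target needed for meiotic entry, was at 9.62 and 10.1 CPM in Veh and at 1864 and 1853 CPM in NRRA. All 8 markers of undifferentiated spermatogonia fell, with a median log2 fold change of -2.80, and Nanos2 had 0 and 3 counts in the NRRA libraries. Of 8 general germ cell markers 3 were higher and 4 lower, from Piwil2 at 0.20 to Tdrd1 at -0.45 in log2 fold change, with Ddx4 at 271 and 278 CPM in NRRA against 273 and 268 CPM in Veh. The summed level of 12 fibroblast feeder markers was 9216 and 9122 CPM in Veh and 7180 and 7033 CPM in NRRA. Fn1 alone made up 6143 and 6087 CPM of this in Veh and 4362 and 4352 CPM in NRRA. Of the 12 markers 9 were lower and 2 higher, from Pdgfra at 0.98 to Lum at -1.43. Of 5 Sertoli markers 3 could be tested and 1, Sox9, was lower, while Fshr had 0 counts in all 4 libraries. Of 4 leukocyte markers 1 was lower, and of the 3 testable markers of Leydig cells and other testis soma 1 was higher and 2 lower. The sum of 6 markers of late spermatocytes and spermatids was 4.31 and 4.77 CPM in Veh and 2.98 and 3.36 CPM in NRRA. The part of feeder and somatic RNA in the results below was not tested. In bulk RNA, fewer cells of a type and less transcript per cell cannot be told apart.

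Dmc1 and M1ap rose, Mnd1 fell, and Brca2 and Psmc3ip had fold changes near 0 in NRRA. Meiob and Hsf2bp were also called higher, with smaller counts or smaller changes behind them. Of the 9 genes 8 passed the filter on low counts. Among these, 4 were higher and 1 was lower with a Benjamini-Hochberg adjusted p under 0.05 (edgeR quasi-likelihood test over all genes), and 3 were not called. Over all 20232 genes tested, 27.9% were called higher and 28.4% lower, so that calls were frequent throughout. The groups did not overlap in CPM for 7 of the 8 tested genes, against 76.6% of all genes tested. Their median log2 fold change was 0.14 ± 0.035 (SD over the 4 ways to pair the libraries of opposite groups), and that of all tested genes was 0.0003.

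**Figure D1:**
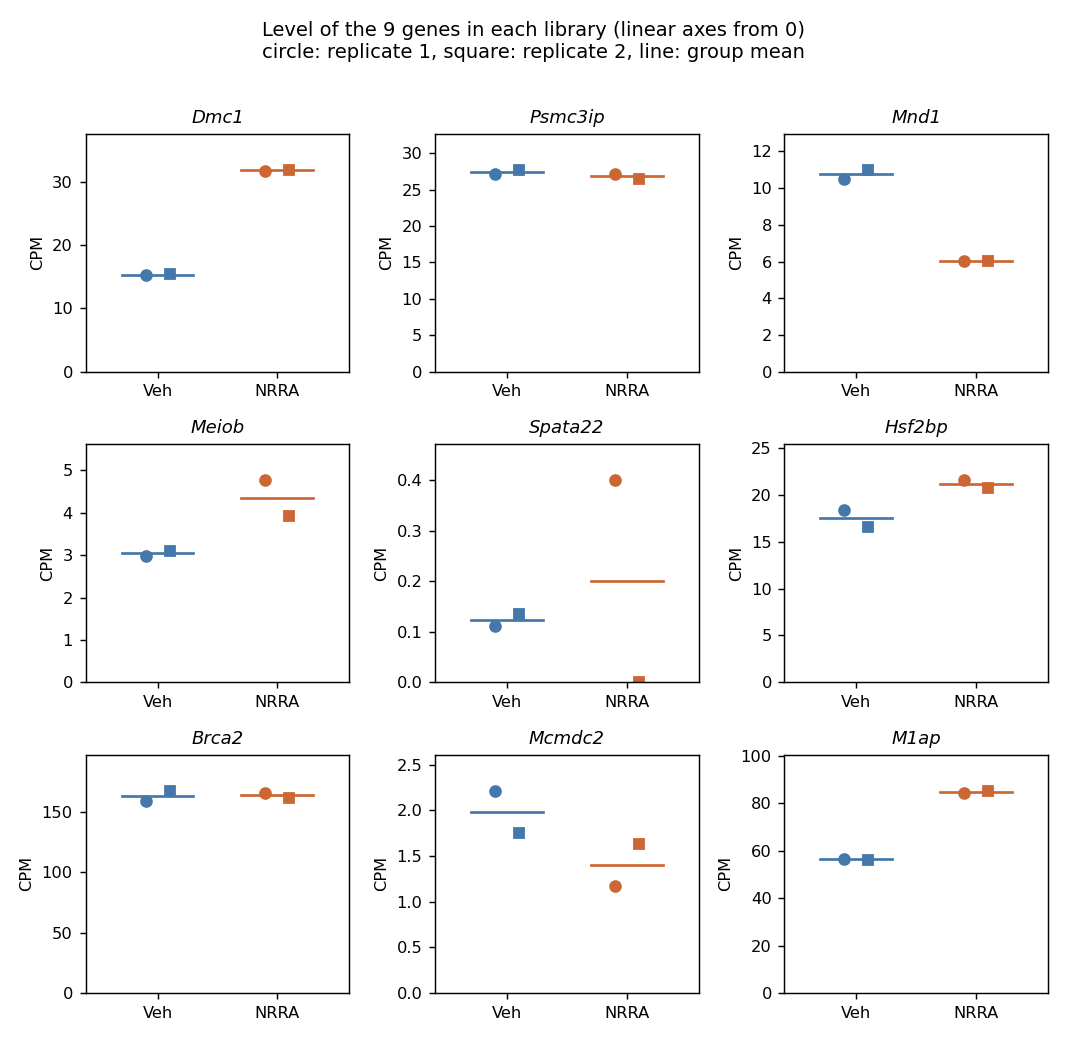
Level of each of the 9 genes in CPM, counts per 1000000 (vertical axes, linear from 0) in the Veh and NRRA libraries (horizontal axes). Each point is a library and each line a group mean of n = 2. Dmc1 moved from 15.3 to 31.8 CPM and M1ap from 56.4 to 84.9 CPM, while Mnd1 moved from 10.8 to 6.03 CPM.

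The start regions of the genes are shown because the genes of 1 pathway, and even of 1 protein dimer, moved differently. RefSeq sequences from 250 bases before to 50 bases after the transcription start (GRCm38.p6) were at hand for 7 of the 9 genes, not for Meiob and Mcmdc2. The regions printed are those of Dmc1 (chr15:79605060-79605359, minus strand) and M1ap (chr6:82946672-82946971, plus strand), which rose most, and of the dimer partners Mnd1 (chr3:84155737-84156036, minus strand) and Psmc3ip (chr11:101095386-101095685, minus strand). Each is written in the gene's direction. Capitals mark the E2F core TCCCGC on either strand and, in M1ap, also the STRA8 motif CNCCTCAG, which is the first of its 2 marked stretches and lies on the reverse strand. The marked stretches do not overlap each other.
Dmc1: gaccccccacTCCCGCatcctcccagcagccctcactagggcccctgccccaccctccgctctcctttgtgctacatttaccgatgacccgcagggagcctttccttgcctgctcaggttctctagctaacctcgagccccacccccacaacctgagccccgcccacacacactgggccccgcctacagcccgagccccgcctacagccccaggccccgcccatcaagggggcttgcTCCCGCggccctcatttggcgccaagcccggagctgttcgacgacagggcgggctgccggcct
M1ap: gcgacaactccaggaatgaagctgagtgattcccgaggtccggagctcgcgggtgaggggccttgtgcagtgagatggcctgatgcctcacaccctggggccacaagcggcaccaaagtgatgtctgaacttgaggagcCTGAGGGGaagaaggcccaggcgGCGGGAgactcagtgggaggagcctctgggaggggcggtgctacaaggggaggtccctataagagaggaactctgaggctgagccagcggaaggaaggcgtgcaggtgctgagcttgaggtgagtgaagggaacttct
Mnd1: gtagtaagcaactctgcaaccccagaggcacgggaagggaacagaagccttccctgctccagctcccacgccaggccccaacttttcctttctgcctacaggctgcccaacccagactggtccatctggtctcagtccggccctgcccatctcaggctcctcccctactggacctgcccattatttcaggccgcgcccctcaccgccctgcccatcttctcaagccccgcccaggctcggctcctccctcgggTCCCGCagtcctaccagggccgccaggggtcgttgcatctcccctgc
Psmc3ip: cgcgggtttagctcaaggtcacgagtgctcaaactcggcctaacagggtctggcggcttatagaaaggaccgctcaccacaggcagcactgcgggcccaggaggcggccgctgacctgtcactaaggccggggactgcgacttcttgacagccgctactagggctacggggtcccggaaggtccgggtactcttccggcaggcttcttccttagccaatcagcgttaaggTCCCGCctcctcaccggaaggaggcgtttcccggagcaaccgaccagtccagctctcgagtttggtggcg

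The E2F core was found in all 7 start regions, against 20% of 32851 mouse start regions and 32.6% of the 16484 that belong to genes tested here. Counted with the first transcribed base as 1 and the base before it as -1, it began at -240 and -13 in Dmc1, at -88 in M1ap, at -20 in Psmc3ip and at 4 in Mnd1. Genes that rose, fell or were not called therefore all held it. The STRA8 motif was found in M1ap alone of the 7, from -111, against 7.94% of all start regions and 9.18% of those of tested genes. The E-box CACGTG was found in none of the 7, against 7.15% of all and 9.49% of those of tested genes. A match describes letters in this window and not the binding of a factor.

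Dmc1 encodes the recombinase that acts only in meiosis (ENSMUSG00000022429, GRCm38 chromosome 15, 79561497 to 79605109, minus strand). The Veh libraries held 413 and 457 of its counts, the NRRA libraries 1034 and 959, which scaled to 15.2 and 15.4 CPM against 31.8 and 31.9 CPM. Both NRRA libraries were thus far above both Veh libraries, and the libraries of a group lay close together. The log2 fold change was 1.06 (SE 0.073, edgeR adjusted p 2.45e-12), a 2.08-fold rise.

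The partners that form the HOP2-MND1 dimer parted. Mnd1 (chromosome 3, 84087933 to 84155786, minus strand) was counted 285 and 327 times in the Veh libraries, against 196 and 182 times with NRRA. These counts scaled to 10.51 and 10.99 CPM and to 6.02 and 6.05 CPM. Both NRRA libraries were below both Veh libraries. The log2 fold change was -0.83 (SE 0.12, edgeR adjusted p 1.22e-06), and Veh was 1.78-fold higher. A pseudogene, Mnd1-ps, is near-identical to 94.2% of the longest Mnd1 transcript and was counted with 0 and 5 reads in Veh and 1 read in each NRRA library. The treatment of reads that match both is unknown.

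Psmc3ip, which encodes HOP2 (chromosome 11, 101091823 to 101095436, minus strand), was at 27.1 and 27.7 CPM in Veh and at 27.1 and 26.5 CPM in NRRA. The groups did not overlap but lay side by side. The difference of -0.033 on the log2 scale was not called (SE 0.067, 95% interval -0.17 to 0.11, edgeR adjusted p 0.705). The opposite strand carries Mlx over 21.2% of its exonic bases, and Mlx had a log2 fold change of -0.018. The level of Psmc3ip per exonic length was 1.24 and 1.21 times that of Mnd1 in Veh and 2.17 and 2.11 times in NRRA, 1.74 times as high a ratio (exact two-sided permutation p = 0.333, the smallest value that 2 libraries against 2 allow).

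Few reads were counted for the single-strand DNA binding pair. Meiob (chromosome 17, 24804289 to 24839788, plus strand) was counted 81 and 92 times in Veh, against 155 and 118 times with NRRA. The levels were 2.99 and 3.09 CPM in the former and 4.76 and 3.92 CPM in the latter. Both NRRA libraries were above both Veh libraries but apart from each other. Its difference of 0.52 on the log2 scale (SE 0.18, 95% interval 0.15 to 0.88) was called by edgeR (adjusted p 0.0161) and not by DESeq2 (adjusted p 0.161). It was also not called by edgeR without NRRA replicate 1 (0.37, adjusted p 0.186) or without Veh replicate 1 (0.49, adjusted p 0.0533).

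Spata22, the partner of Meiob (chromosome 11, 73329741 to 73346044, plus strand), was counted 3 and 4 times in Veh, against 13 and 0 times with NRRA. It lay at or near the floor in 3 of the 4 libraries, did not pass the filter, and its groups overlapped, so no fold change was given. Its value of 0 in NRRA replicate 2 allows a level of up to 0.0997 CPM. Of its exonic bases 80.5% also belong to Gm49340 on the same strand, a gene with 0 counts in all 4 libraries. How reads that fit both were counted was not given in the sources used here.

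Brca2 (chromosome 5, 150522630 to 150570329, plus strand), which helps to load recombinase on single-strand DNA, was at 159 and 168 CPM in Veh and at 166 and 162 CPM in NRRA. The groups overlapped fully, and the log2 fold change was 0.0030 (SE 0.033, edgeR adjusted p 0.95). The 95% interval of the log2 fold change ran from -0.066 to 0.072, the tightest among the tested genes of the set.

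Hsf2bp, the meiotic partner of Brca2 (chromosome 17, 31944769 to 32036349, minus strand), was at 18.4 and 16.6 CPM in Veh and at 21.5 and 20.7 CPM in NRRA. The groups did not overlap, although the Veh libraries lay apart from each other. Its log2 fold change was 0.27 (SE 0.081, edgeR adjusted p 0.00573). DESeq2 gave an adjusted p of 0.0779, and edgeR without Veh replicate 2 gave 0.20 (adjusted p 0.0871). Its level per exonic length was 0.439 and 0.377 of that of Brca2 in Veh and 0.493 and 0.486 in NRRA. The opposite strand carries Rrp1b over 1.5% of the exonic bases of Hsf2bp. Rrp1b had a log2 fold change of -0.29 (edgeR adjusted p 3.06e-07).

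Brme1, the stabilising partner of Hsf2bp and named 4930432K21Rik in the annotation (chromosome 8, 84148025 to 84172590, plus strand), went the other way, from 17.3 and 17.5 CPM in Veh to 14.9 and 14.6 CPM in NRRA. The log2 fold change was -0.24 (SE 0.086, edgeR adjusted p 0.0204). It was not called by DESeq2 (adjusted p 0.187), with library size only (adjusted p 0.147), or in edgeR without NRRA replicate 1 (0.074), NRRA replicate 2 (0.101) or Veh replicate 2 (0.0643). Its level was 1.40 and 1.57 times that of Hsf2bp in Veh and 1.03 and 1.05 times in NRRA, per exonic length (exact two-sided permutation p = 0.333, the smallest possible).

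**Figure D2:**
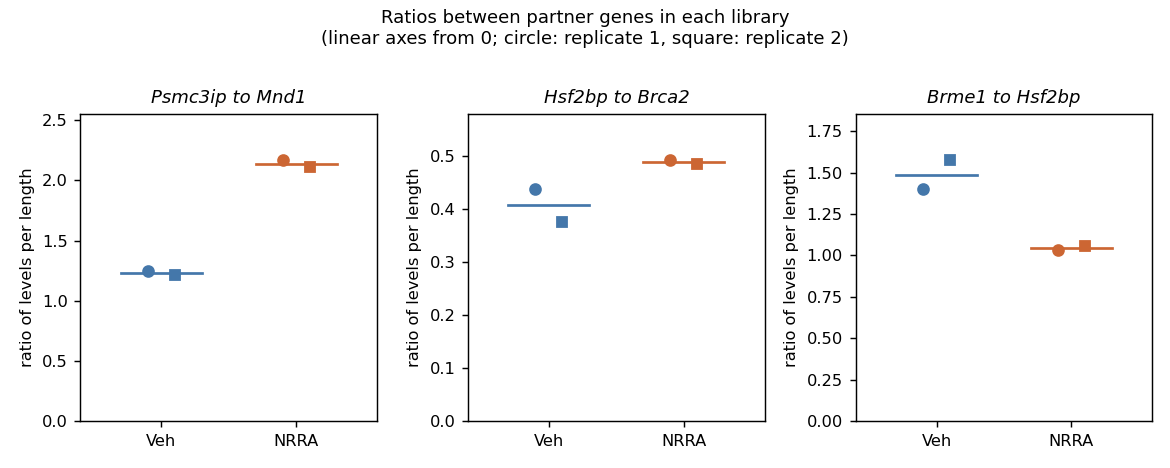
Ratio of the levels per exonic length of partner genes (vertical axes, no unit, linear from 0) in each Veh and NRRA library (horizontal axes), with lines at the means of n = 2. Psmc3ip to Mnd1 rose from 1.23 to 2.14, while Brme1 to Hsf2bp went from 1.49 to 1.04.

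M1ap, whose product is needed for male meiosis to pass its first division (chromosome 6, 82946902 to 83030309, plus strand), was at 56.7 and 56.1 CPM in Veh and at 84.5 and 85.3 CPM in NRRA. The NRRA libraries were well above the Veh libraries. The log2 fold change was 0.59 (SE 0.044, edgeR adjusted p 9.89e-12), or 1.5-fold. Mcmdc2, an MCM-related gene needed for meiotic break repair (chromosome 1, 9908638 to 9942085, plus strand), was counted only 60 and 52 times in Veh, against 38 and 49 times with NRRA. Both NRRA libraries lay below both Veh libraries, yet the difference of -0.50 on the log2 scale was not called (SE 0.27, 95% interval -1.06 to 0.06, edgeR adjusted p 0.121), and at this depth a fall could be neither shown nor set aside.

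The order of the levels per exonic length changed between the groups. In Veh, M1ap was highest at 25.5 ± 0.19 CPM per kb (SD, n = 2), followed by Psmc3ip (15.1 ± 0.21), Mnd1 (12.3 ± 0.39), Brca2 (11.98 ± 0.43) and Dmc1 (6.28 ± 0.038). Mnd1 and Brca2 overlapped there. Hsf2bp (4.88 ± 0.35), Meiob (1.69 ± 0.042), Mcmdc2 (0.335 ± 0.055) and Spata22 (0.0962 ± 0.013) were lower, the last over exons that it shares with Gm49340, so that its level and rank depend on how shared reads were counted. In NRRA, Dmc1 at 13.1 ± 0.032 CPM per kb ranked 3 instead of 5, and Mnd1 at 6.89 ± 0.022 ranked 5 instead of 3. M1ap (38.4 ± 0.26), Psmc3ip (14.7 ± 0.22), Brca2 (12.01 ± 0.23), Hsf2bp (5.88 ± 0.16), Meiob (2.41 ± 0.33), Mcmdc2 (0.236 ± 0.055) and Spata22 (0.157 ± 0.22) kept their places, of which the last neighbours overlapped. With the longest transcript as the length, a choice made after seeing the data, Dmc1 ranked 5 in Veh and 4 in NRRA, below Brca2. Mnd1 then ranked 4 in Veh and overlapped Hsf2bp in NRRA. The levels and ranks of Mnd1 and Psmc3ip can also depend on how reads shared with Mnd1-ps or Mlx were counted.

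The list of other genes of meiotic strand exchange also moved in both directions. It holds genes of crossover, repair synthesis and break formation too, and its genes need not act in meiosis alone. In NRRA 7 of its 14 genes were higher and 2 lower, against 27.9% and 28.4% of all genes tested. The median log2 fold change of the list was 0.12. Hfm1, a helicase of the crossover pathway, rose by 1.05 on the log2 scale (SE 0.19, edgeR adjusted p 3.6e-05) at a low level, 2.29 and 2.02 CPM in Veh and 4.33 and 4.55 CPM in NRRA. Tex15, which is needed for DMC1 to form foci at breaks and also acts in silencing of transposons, went from 200 and 196 CPM to 314 and 309 CPM. Its edgeR log2 fold change came to 0.66 (SE 0.028, adjusted p 1.15e-16). The other rises were those of Spidr (0.47), Tex11 (0.31), Swsap1 (0.30), Firrm (0.26) and Shoc1 (0.13), of which DESeq2 did not call Swsap1 (adjusted p 0.219) and Shoc1 (adjusted p 0.195). In edgeR, Swsap1 lost its call without NRRA replicate 1 (0.12, adjusted p 0.537), Veh replicate 1 (adjusted p 0.0679) or Veh replicate 2 (adjusted p 0.0528), and Shoc1 without NRRA replicate 1 (0.137), NRRA replicate 2 (0.117) or Veh replicate 1 (0.207). Mcm9, a helicase of repair synthesis, had the lowest value of -0.38 (SE 0.062, edgeR adjusted p 8.71e-06), and Brme1 was the other gene that fell. Mcm8, Hrob, Fignl1, Zswim7 and Ankrd31, the last a gene of break formation rather than exchange, were not called, with values between -0.061 and 0.11.

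Calls in both directions were also found among general recombination genes. Among 15 recombinase paralogs, loaders and mediators that also act in dividing somatic cells, 6 were higher and 1 lower, and their median log2 fold change was 0.072. They ranged from 0.26 for Rad51d (SE 0.091, edgeR adjusted p 0.0168) to -0.18 for Sfr1, a recombination mediator (SE 0.032, edgeR adjusted p 4.65e-05). The called genes beside these were Rad51ap1, Rad54b, Palb2, Xrcc2 and Rad54l. DESeq2 did not call Rad51d, Palb2, Xrcc2 or Rad54l (adjusted p 0.138, 0.0913, 0.191 and 0.0853), and each of the genes called higher in this list lost its edgeR call when at least 1 of the 4 libraries was left out. Without NRRA replicate 2 the value of Rad51d was 0.16 (adjusted p 0.282), and without Veh replicate 1 that of Rad54b was 0.16 (adjusted p 0.0563). All 3 subunits of RPA fell, by 0.13 for Rpa1 and Rpa2 and by 0.20 for Rpa3 on the log2 scale. With library size only none of the 3 was called (adjusted p 0.31, 0.301 and 0.235 for Rpa1, Rpa2 and Rpa3), DESeq2 did not call Rpa3 (adjusted p 0.231), and edgeR did not call Rpa2 without NRRA replicate 1 (adjusted p 0.0812) or Rpa3 without NRRA replicate 2 (0.243) or without Veh replicate 1 (0.167). Rpa3 also lost its call with upper quartile factors (adjusted p 0.0537) and with no filter on low counts (adjusted p 0.0538). The 7 tested meiotic genes of the set spread wider, from -0.83 to 1.06 with a median of 0.27, and no test of the lists against each other was made.

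**Figure D3:**
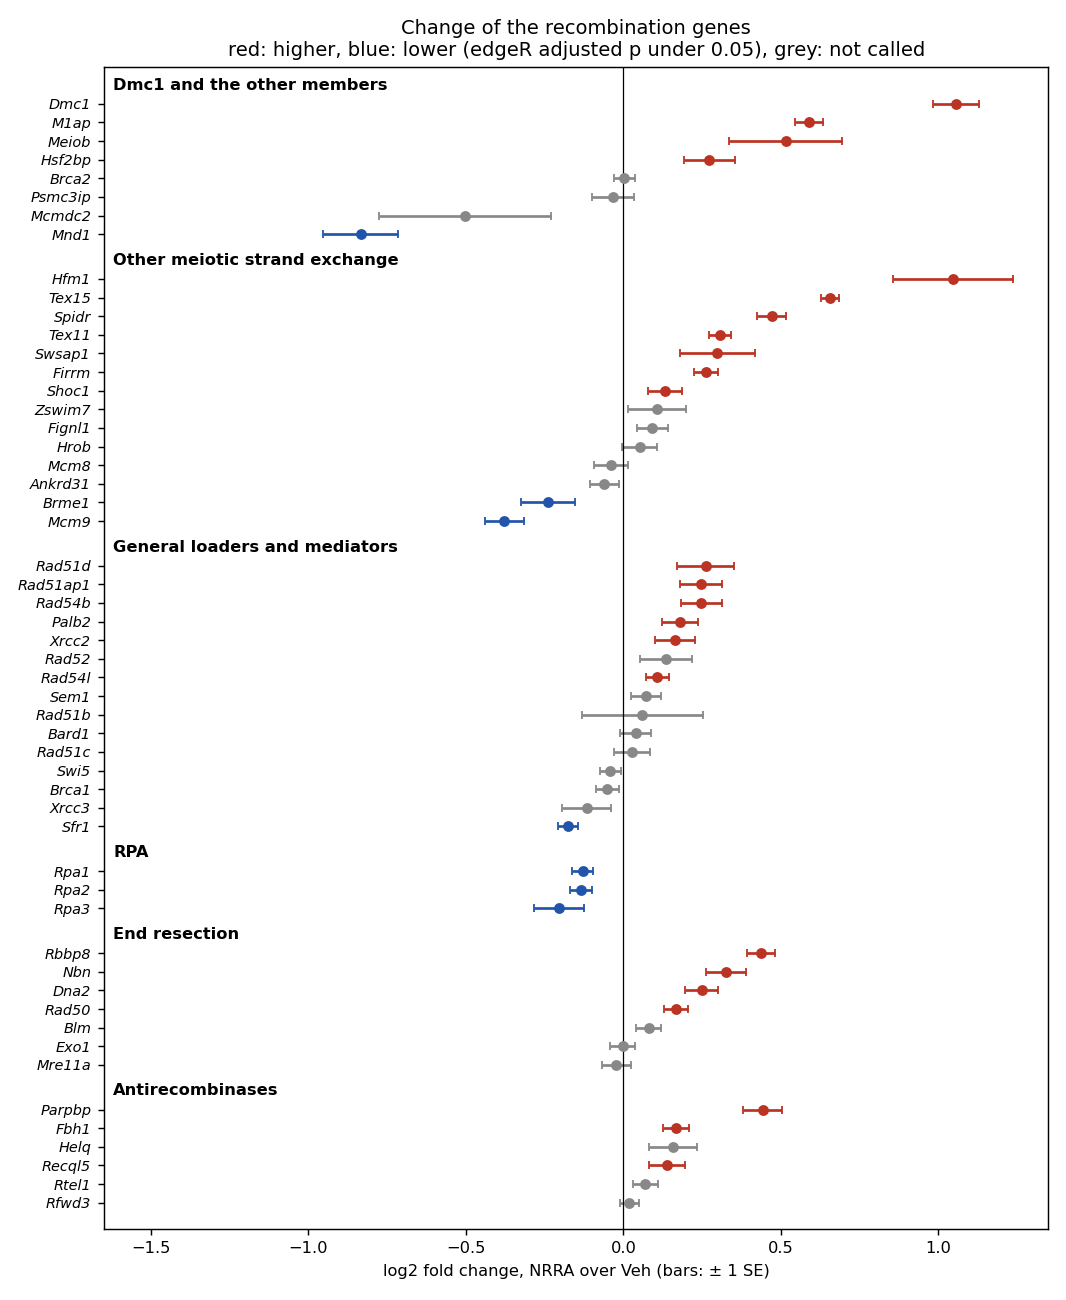
Log2 fold change of NRRA over Veh (horizontal axis) with bars of 1 SE for the tested genes of the set and of 5 further recombination lists (rows). Red and blue points passed an adjusted p of 0.05 in edgeR, grey points did not. Dmc1 at 1.06 and Hfm1 at 1.05 lie farthest right and Mnd1 at -0.83 farthest left, while the 15 general loaders and mediators lie between -0.18 and 0.26 and the RPA subunits between -0.20 and -0.13.

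Genes of end resection and antirecombinases completed the 5 lists. Of 7 resection genes 4 were higher and none lower (median 0.17), from Rbbp8, encoding CtIP, at 0.44 to Mre11a at -0.022. Of 6 antirecombinases 3 were higher and none lower (median 0.15), from Parpbp at 0.44 to Rfwd3 at 0.019. The call of Recql5 (0.14, edgeR adjusted p 0.0446) was lost with DESeq2 (adjusted p 0.223) and in edgeR without NRRA replicate 1 (0.0842), NRRA replicate 2 (0.219) or Veh replicate 2 (0.2). In all 5 lists together, 20 of 45 genes were higher and 6 lower in edgeR, with a median log2 fold change of 0.11. Beside this count and that of each list stand the shares over all genes tested, 27.9% higher and 28.4% lower. With library size only, 29 of the 45 were higher and 2, Mcm9 and Sfr1, were lower. That scaling called 6962 of all genes higher and 4593 lower.

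Because many recombination genes are also transcribed in dividing cells, cell cycle lists are given beside them. Of 12 genes of DNA replication and S phase 3 were higher and 7 lower (median -0.091), from Ccne2 at 0.61 to Mcm7 at -0.48. Of 8 mitotic genes 4 were higher and 1 lower (median 0.061), from Bub1 at 0.33 to Cdk1 at -0.13. The 7 genes of differentiating spermatogonia and the retinoic acid response all rose, with a median log2 fold change of 5.59 and a range from 0.52 for Sohlh2 to 8.14 for Cyp26a1. The part of cell cycle or of differentiation in the fold changes of the strand exchange genes was not tested.

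With DESeq2, which the study used, 19.3% of 22056 genes were called higher and 19.6% lower. Of the 9 genes 2, Dmc1 and M1ap, remained higher and Mnd1 remained lower, while Meiob and Hsf2bp lost their calls as given above. In the other recombination lists DESeq2 called 13 genes higher and 4 lower.

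**Figure D4:**
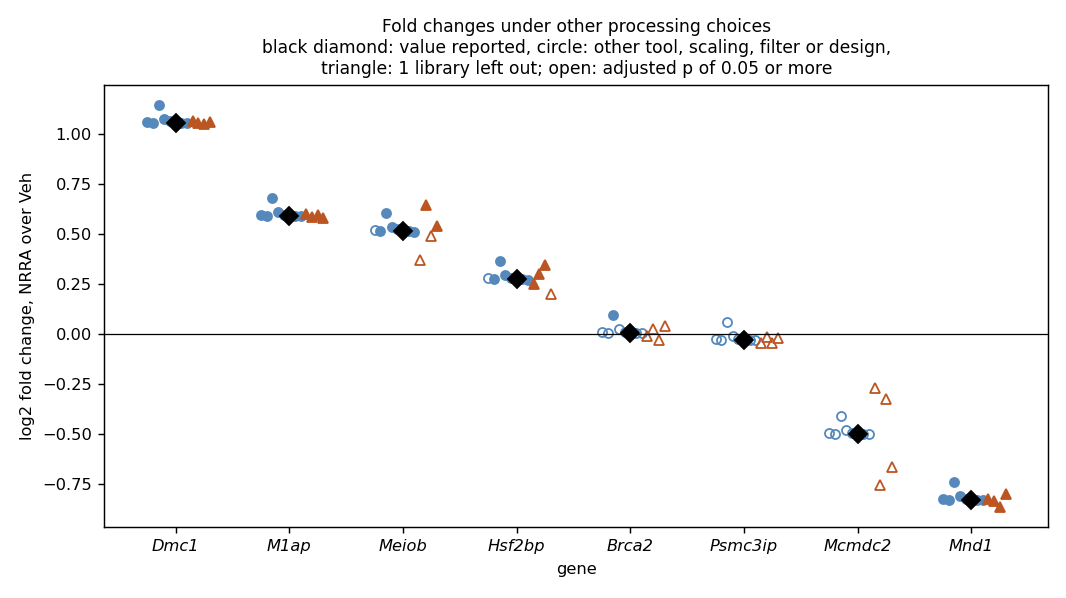
Log2 fold change of NRRA over Veh (vertical axis) of the 8 tested genes (horizontal axis) as reported and under 12 other processing choices, including 4 that each leave out a library. Open points had an adjusted p of 0.05 or more. Dmc1, M1ap and Mnd1 kept filled points on 1 side of 0 throughout, whereas Meiob and Hsf2bp each had open points and Brca2 and Psmc3ip lay around 0.

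The genes whose pattern over the 4 libraries was most like that of Dmc1 were Crebl2, Ppp1r16b, Ankrd28, Epb41 and Gas1, by Euclidean distance of centred log2 CPM among the 11325 tested genes whose mean log2 CPM reached 3. Their distances were 0.019 to 0.031 on the log2 scale, and 19 genes lay within 2 times the distance of the fifth, so that the choice among them is close. The distance over 4 libraries in 2 groups reflects mainly the size of the difference between the groups.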

How the data were processed

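Poly(A) RNA of 2 Veh and 2 NRRA libraries was analysed, grouped by the sample titles. The authors deposited raw counts per gene for the 4 libraries. The submitters' processing notes name bcl2fastq, STAR 2.6.1c, featureCounts 1.6.4 and mm10, while the annotation release, the strand setting and the handling of reads shared by genes are not given in the sources used here. The labels name both an Illumina TruSeq kit and NuGENUPRNA, and the study's methods a stranded Tecan kit.

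Counts were tested with edgeR 4.0.16 (filterByExpr, TMM, robust quasi-likelihood F test, Benjamini-Hochberg adjustment over 20232 genes, threshold 0.05), after a test on simulated data. The simulated data had 200 changed genes, as many up as down, and do not cover a setting with as many calls as here. SEs came from the F statistic. CPM used TMM-scaled library sizes. DESeq2 1.42.0, other scalings and filters, a replicate block and leaving out each library were the alternatives. Coordinates and lengths came from GENCODE M21 (GRCm38), with near-identical meaning at least 95% identity over at least 100 bases.

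The genes of the set and the lists were chosen with earlier results of these data known. The text names all genes of the set, the highest and lowest of each list it gives a range for, genes of the 5 recombination lists with an adjusted p under 0.05 and an absolute log2 fold change of at least 0.5, Brme1, Stra8 and the 5 genes nearest to Dmc1. Further genes of these lists, and the genes that overlap a named gene, were named after their values were seen. A further gene of the lists is not reported here.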

Additional observations from a re-analysis of the deposited data

How the results depend on the processing

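Of 64 values of the 8 tested genes under 8 alternatives that keep all libraries, 60 kept their direction and side of the threshold. The exceptions were Meiob (0.52, adjusted p 0.161) and Hsf2bp (0.28, adjusted p 0.0779) with DESeq2, and Brca2 (0.093, adjusted p 0.0197) and Psmc3ip (0.057, adjusted p 0.497) with library size only. That scaling also moved the median of the set to 0.23, the higher calls from 4 to 5 in the set and from 20 to 29 in the other recombination lists, the lower calls in those lists from 6 to 2, and the share of all calls that were higher from 49.6% to 60.3%. DESeq2 lowered the higher calls to 2 in the set and 13 in the other lists, where 4 genes were lower. The cause was not tested.

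Leaving out a library gave 4996 to 5266 higher and 5093 to 5352 lower genes in all, 3 to 4 higher and 1 lower in the set, 14 to 17 higher and 4 to 6 lower in the other lists, and a median of 0.12 to 0.16. The ranges of the log2 fold change were 1.05 to 1.06 for Dmc1, 0.58 to 0.60 for M1ap, 0.37 to 0.65 for Meiob, 0.20 to 0.35 for Hsf2bp, -0.033 to 0.038 for Brca2, -0.048 to -0.019 for Psmc3ip, -0.76 to -0.27 for Mcmdc2 and -0.87 to -0.80 for Mnd1. Brca2 changed sign without Veh replicate 1 (-0.033) and without NRRA replicate 1 (-0.012). A group with 1 library left was taken to vary like the other.

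Replicate numbers are shared by the groups in the sample titles only, since the Veh libraries titled 1 and 2 are numbered 2 and 3 in their descriptions and columns. Nothing says that the numbers pair the samples, and deviations from the group means had a correlation of -0.011 between equal numbers. With the replicate block 5772 genes were higher and 5836 lower, Dmc1 had a log2 fold change of 1.06, and no call in the set changed. With 2 libraries a group, Mcmdc2 had few counts and was not called, and the reason was not tested. Spata22 was limited by its counts and by the exons it shares with Gm49340.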
